A study of Mus musculus with 20 samples.

Results

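The translation initiation factor genes were taken as the protein-coding mouse genes of GENCODE M21 whose symbol begins with Eif followed by a digit from 1 to 6, leaving out the eIF2 alpha kinases (Eif2ak genes) and symbols of pseudogenes. The rule found 51 genes among the 46603 Ensembl identifiers of the count table. No measured value entered the rule. The 51 genes were sorted into roles by symbol alone, so a role is a label and not a tested function of each gene. They comprise 12 of cap binding and RNA unwinding, 6 of eIF2 and initiator tRNA delivery, and 5 of eIF2B. The others are 14 of eIF3, 4 that bind eIF4E, 2 of eIF5A, and 8 of start codon selection and subunit joining.

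RNA was measured by sequencing in 20 mouse libraries, 2 in each of 10 groups. 8 libraries came from B16F10, a cultured mouse melanoma line kept in puromycin, with genotype Ctrl or Ccdc101 KO; each genotype received thapsigargin (TG, 50 ng/mL) or DMSO vehicle for 8 hours. The remaining 12 were made from CD8 T cells of OT-I/Cas9 origin, which carry a transgenic T cell receptor against an ovalbumin peptide and express Cas9, and which were cultured with IL-2, IL-7, IL-15 and puromycin. Control T cells were resting, or activated on plates coated with anti-CD3 (2.5 µg/mL, 24 hours), and each state received TG or DMSO for 8 hours. Atp2a2 KO T cells received DMSO alone and were labelled resting or activated. All groups therefore share puromycin culture and DMSO or TG exposure. The labels do not say whether a KO was 1 clone or a pool, nor whether a group's 2 libraries stem from different cultures, so every p-value below measures only the spread between these libraries, which may be technical.

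Translation initiation begins when eIF2, carrying GTP and the initiator tRNA, joins the small ribosomal subunit together with eIF1, eIF1A, eIF3 and eIF5. The eIF4F complex (the cap-binding protein eIF4E, the scaffold eIF4G and the helicase eIF4A) brings the mRNA, and eIF4E-binding proteins hold eIF4E away from eIF4G. After start codon recognition eIF5 promotes GTP hydrolysis, eIF5B joins the large subunit, and eIF2B recharges eIF2 with GTP. When stress kinases phosphorylate the alpha subunit of eIF2, eIF2 blocks eIF2B and general initiation slows, while mRNAs such as Atf4 are translated more. Thapsigargin inhibits the SERCA calcium pumps, of which Atp2a2 encodes one, and so empties the endoplasmic reticulum of calcium. Naive and resting T cells keep translation low, and T cell receptor signalling raises the production of the translation machinery.

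The sequences in front of 4 of the 6 genes that rose in all 4 TG comparisons are shown first, because the stress response genes around eIF2 are often described through short promoter motifs. Sequences are from RefSeq on GRCm38.p6, written 5′ to 3′ on the gene's strand, and each stretch ends where the GENCODE M21 gene begins. Capitals mark matches to any of the motifs searched, which are listed after the sequences.
Eif1, chr11:100319699-100319884, plus strand: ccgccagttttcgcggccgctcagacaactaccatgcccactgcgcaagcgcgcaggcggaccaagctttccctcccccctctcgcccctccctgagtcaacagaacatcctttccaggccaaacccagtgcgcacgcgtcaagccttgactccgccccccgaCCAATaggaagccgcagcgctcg
Eif5, chr12:111537851-111538015, plus strand: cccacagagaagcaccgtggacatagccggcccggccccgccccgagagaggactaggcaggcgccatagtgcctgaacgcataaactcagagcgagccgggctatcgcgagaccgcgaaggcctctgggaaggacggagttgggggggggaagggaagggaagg
Eif2s2, chr2:154892936-154893156, minus strand: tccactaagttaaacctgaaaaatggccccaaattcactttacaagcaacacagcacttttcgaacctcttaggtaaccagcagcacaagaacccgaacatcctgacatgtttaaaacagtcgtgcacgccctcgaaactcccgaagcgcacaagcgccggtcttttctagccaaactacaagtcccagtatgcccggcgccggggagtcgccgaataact
Eif3c, chr7:126566412-126566616, minus strand: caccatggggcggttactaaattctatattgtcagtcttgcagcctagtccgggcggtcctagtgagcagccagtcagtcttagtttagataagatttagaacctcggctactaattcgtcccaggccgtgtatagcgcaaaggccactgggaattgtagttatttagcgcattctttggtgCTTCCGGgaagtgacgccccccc

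The motifs were searched on both strands in the 250 bases before and 50 bases after each RefSeq start, for the 39 of 51 initiation factor genes that matched by symbol and for all 27025 genes of the same set. That set was not limited to genes expressed in these libraries, and shares among expressed genes were not computed. The C/EBP-ATF response element, searched as TGATGNAA, was found in 1 of the 39 genes (2.56%), Eif2s3x, and in 4.51% of all genes. The cAMP response element TGACGTCA was found in 0 of the 39 and in 2.03% of all genes. The ER stress response element ERSE, which contains a CCAAT box, was found in 0 of the 39 and in 0.137% of all genes. The CCAAT box itself was in 13 of the 39 (33.3%) and in 41.1% of all genes, and the ETS motif CCGGAAG was in 15 (38.5%) and in 9.93%. The E-box CACGTG, the site bound by Myc and related factors, was in 10 of the 39 genes (25.6%) and in 8.09% of all genes: Eif1b, Eif3a, Eif3f, Eif3k, Eif4a1, Eif4e, Eif4g1, Eif4h, Eif5a and Eif5a2. A match describes letters and shows no binding, and no match says only that these letters are not in this window.

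Windows around E-boxes that lie before a RefSeq start of 3 eIF4F genes and of Eif5a are printed. These 4 genes were among those that rose with T cell activation. They were picked for that, and not all of the same 10 E-box genes rose. Eif3f fell with activation (-0.48), while Eif3k (0.02, edgeR adjusted p = 0.69) and Eif1b (0.07) were not called. A second E-box of Eif4g1, after its RefSeq start, is not shown, and the last Eif5a window lies before an alternative RefSeq start. Only the Eif4a1 window lies before the GENCODE M21 gene. The windows of Eif4e, Eif4g1 and Eif5a lie inside their GENCODE M21 genes. The E-box is in capitals, with 12 bases on either side.
Eif4e, chr3:138527028-138527057, plus strand: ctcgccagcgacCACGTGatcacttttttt
Eif4e, chr3:138527192-138527221, plus strand: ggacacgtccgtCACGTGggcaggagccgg
Eif4a1, chr11:69672595-69672624, minus strand: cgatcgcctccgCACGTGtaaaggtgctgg
Eif4g1, chr16:20672661-20672690, plus strand: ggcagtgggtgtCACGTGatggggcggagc
Eif5a, chr11:69921443-69921472, minus strand: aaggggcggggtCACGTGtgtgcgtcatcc
Eif5a, chr11:69920791-69920820, minus strand: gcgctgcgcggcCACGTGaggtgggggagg

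Libraries held between 9985311 and 17462770 counts, and levels are given as CPM, a gene's counts scaled to the size of its library. Sgf29, the current symbol of Ccdc101, averaged 28.9 ± 0.99 CPM (SD, n = 2) in control and 19.2 ± 0.61 in Ccdc101 KO B16F10 cells with vehicle. Atp2a2 averaged 676 ± 16 CPM in activated control and 435 ± 1.2 in activated Atp2a2 KO T cells, and 225 ± 0.38 in resting control and 454 ± 2.2 in the KO libraries labelled resting. Those 2 libraries stood apart from their label: the summed level of 6 activation genes (Il2ra, Cd69, Ifng, Gzmb, Nr4a1 and Tnfrsf9) was 33800 and 34000 CPM in them, 12650 to 13170 in resting control, 32810 to 33670 in activated control and 33810 to 35250 in activated KO libraries. They are called "labelled resting" throughout, and no direction for resting Atp2a2 KO cells is drawn from them. The sum of 6 melanoma markers ran from 4767 to 9538 CPM in B16F10 and reached at most 5.13 in T cells, while the sum of 6 CD8 T cell markers ran from 2040 to 4743 CPM in T cells and reached at most 7.53 in B16F10. The marker lists of CD4 T cells, B cells, myeloid cells, fibroblasts and red cells each summed to at most 9.15 CPM in any library, a level reached by the fibroblast list.

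The initiation factor genes took between 1.05% and 1.72% of all counts in a library. Their share was 1.56% ± 0.0074 (SD, n = 2) in control B16F10 with vehicle and 1.67% ± 0.019 with TG. Among T cells it was 1.06% ± 0.021 in resting and 1.59% ± 0.013 in activated control cells with vehicle, and with TG it was 1.25% ± 0.0079 and 1.51% ± 0.0023. The 2 resting vehicle libraries thus held the smallest share of all 10 groups.

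48 of the 51 genes passed the filter on low counts in every fit. The other 3 were not tested. Eif4e1b, a cap-binding paralog, had 1 count over all 20 libraries, and Eif4ebp3, an eIF4E-binding protein, had 34. Eif2s3y, the Y-linked copy of the eIF2 gamma subunit gene, had 0 counts in all 20 libraries, as did the Y-linked genes Ddx3y, Kdm5d and Uty, whereas its X-linked partner Eif2s3x had 42.9 ± 0.041 CPM in control B16F10 and 43.9 ± 2.2 in resting T cells with vehicle. Because reads that map to several places are not counted by HTSeq, genes with close copies elsewhere, such as Eif1 with 3 named pseudogenes and the pair Eif3j1 and Eif3j2, are counted in part. Strand use is not stated, and exons on the opposite strand overlap 43.3% of the exon bases of Eif3d (Gm17638), 19% of Eif3j1 (Spg11), 16.8% of Eif5b (Rev1), 15.3% of Eif1ad (Banf1), 12.7% of Eif1b (D830035M03Rik) and 7.85% of Eif2b4 (Snx17), so their counts can hold reads of both genes.

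Per kilobase of exon, Eif5a, which helps ribosomes through difficult peptide bonds, was the most abundant member: 432 RPKM (CPM divided by exon length in kilobases) in control B16F10, 360 in resting and 629 in activated T cells, all with vehicle. Eif4g1 followed in B16F10 at 220 RPKM, Eif3h in resting T cells at 260 and Eif3c in activated T cells at 242. Among the 48 tested genes the smallest in those 3 groups were Eif3j2, at 2.58, 1.41 and 3.45 RPKM, and next Eif2b3 in B16F10 and resting T cells, at 5 and 3.38, and Eif5a2 in activated T cells, at 7.1. Eif2b3, encoding the gamma subunit of eIF2B, stood at 13.1 RPKM in activated cells. The map of log2 changes shows all 48 tested genes in 8 comparisons.

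**Figure D1:**
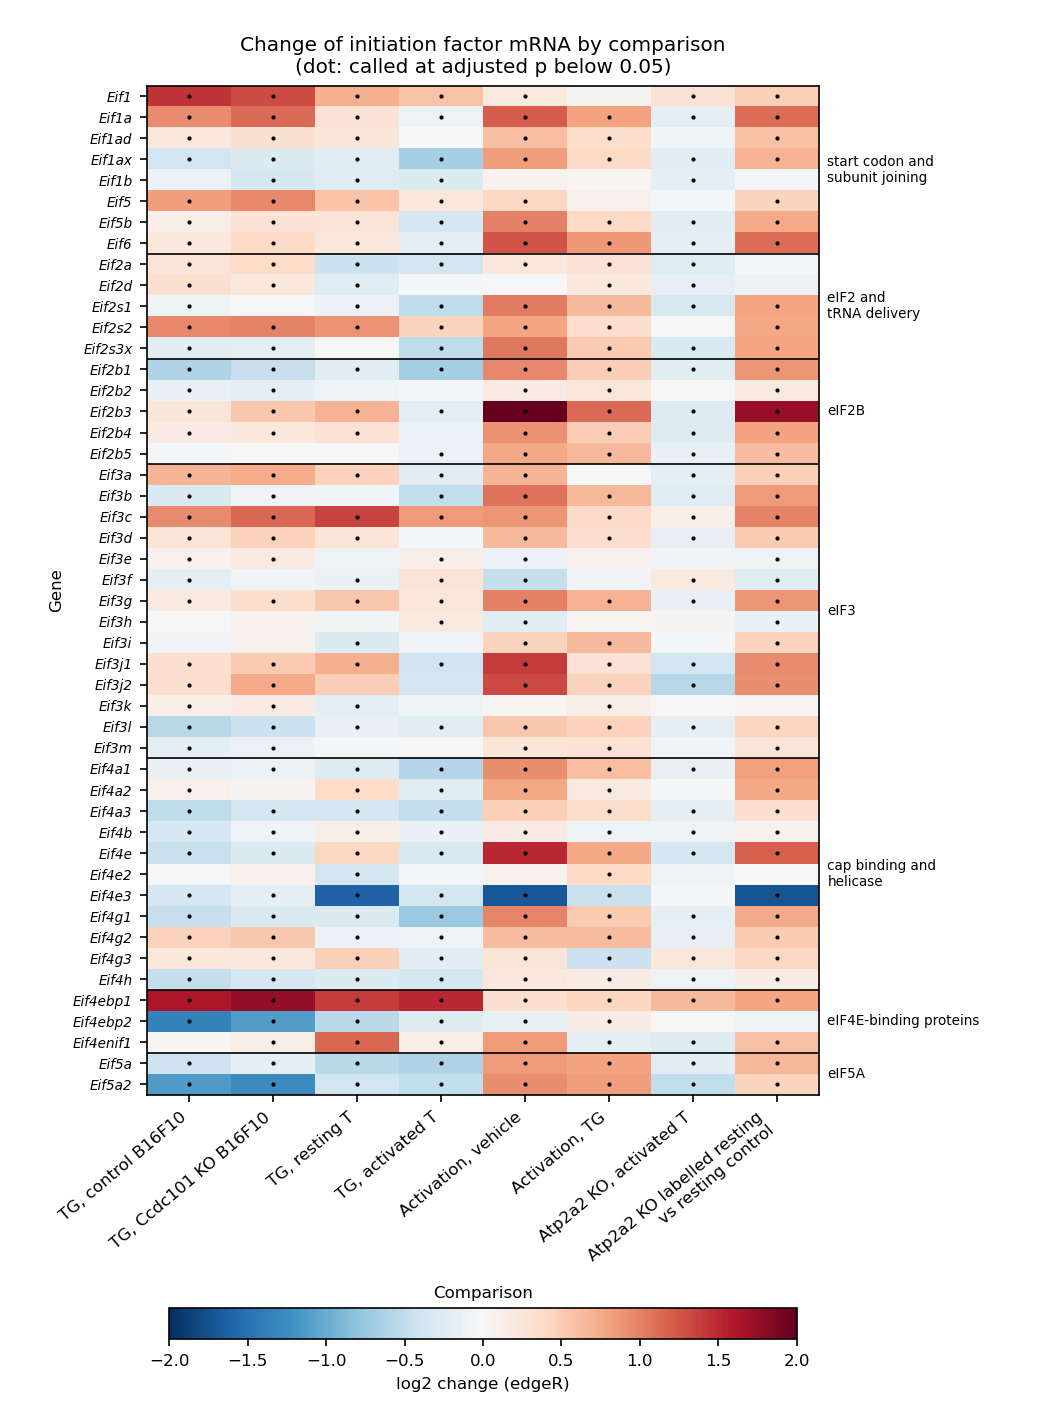
Log2 change (colour, from -2 to 2) of the 48 tested initiation factor genes (rows, grouped by role) in 8 comparisons (columns); a dot marks an adjusted p below 0.05 in edgeR's quasi-likelihood test. Eif4ebp1 is raised in all 4 TG columns, and most rows are raised in the column of activation with vehicle.

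TG moved initiation factor mRNAs in both directions in each cell type. With TG, 23 of 48 tested genes rose and 19 fell in control B16F10 cells, against 35.7% and 36.1% of all 12540 genes tested, and 23 rose and 18 fell in Ccdc101 KO cells (background 34.1% and 36.3%). In resting T cells 20 rose and 20 fell (background 34.1% and 35.2%), and in activated T cells 10 rose and 28 fell (background 32.6% and 32.4%). The median log2 change of the 48 was 0.02, 0.09, -0.05 and -0.18 in that order. These counts rest on the quasi-likelihood test of edgeR, with p-values adjusted over all genes tested (Benjamini-Hochberg) and a threshold of 0.05. In bulk RNA, fewer cells of a type and less RNA per cell cannot be told apart, and CPM are relative to each library's total.

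The 4 TG comparisons share no library. 6 genes rose in all 4: Eif4ebp1, Eif1, Eif5, Eif2s2, Eif3c and Eif3g. The same pattern was met by 13.5% of the 11195 genes tested in both fits. 11 fell in all 4: Eif4ebp2, Eif4a1, Eif4a3, Eif4g1, Eif4h, Eif4e3, Eif5a, Eif5a2, Eif1ax, Eif2b1 and Eif3l, with a background of 13.8%. Among those recomputed with single libraries left out, the call of Eif2b1 in resting T cells was lost without TG replicate 2 (-0.17, edgeR adjusted p = 0.08), and that of Eif4a1 in KO cells (-0.12) was lost without KO vehicle replicate 2 (-0.08, adjusted p = 0.11) or KO TG replicate 1 (-0.10, adjusted p = 0.057). Every other tested gene was called in opposite directions in different settings or was not called in at least 1 setting. The plot of counts by group shows 6 of the genes that moved the same way in all 4.

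**Figure D2:**
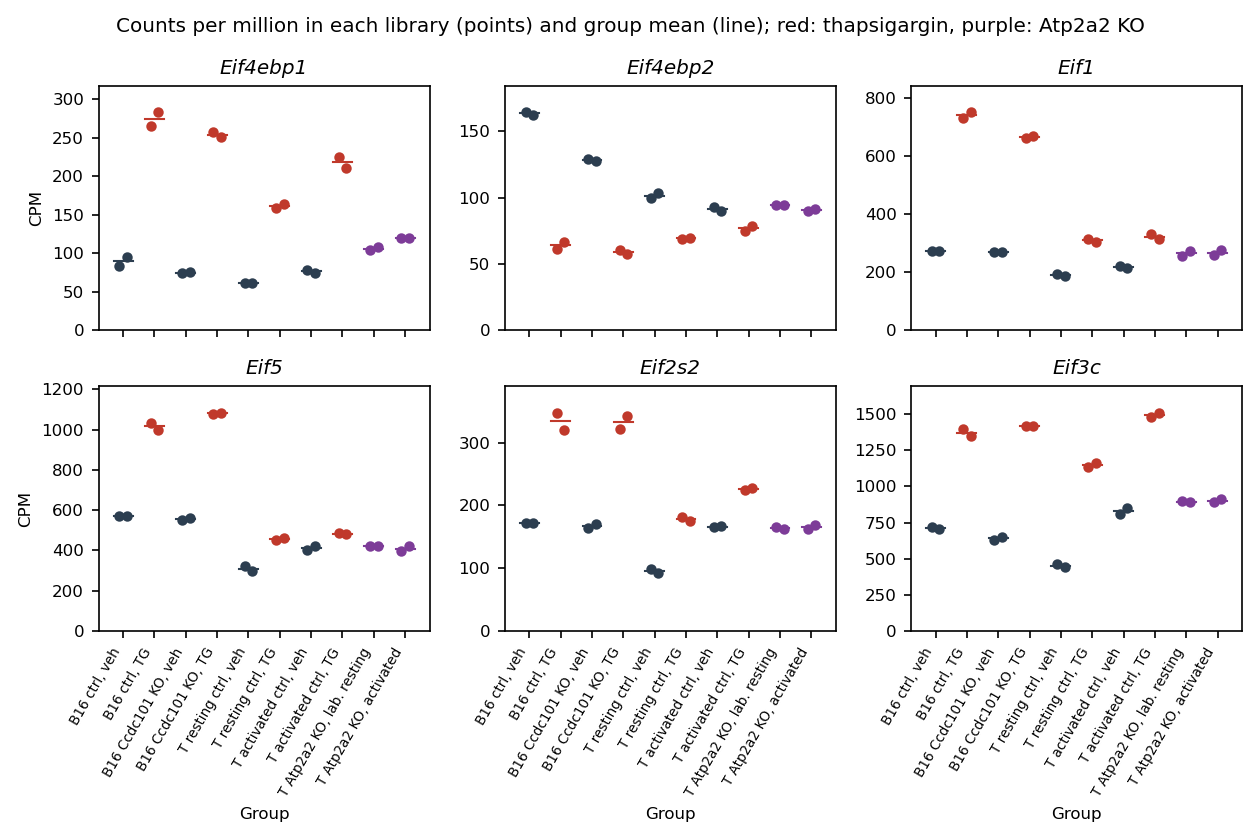
CPM (y axis, from 0) of Eif4ebp1, Eif4ebp2, Eif1, Eif5, Eif2s2 and Eif3c in the 10 groups (x axis); points are libraries, lines are group means, red marks TG and purple Atp2a2 KO. B16F10 and T cell libraries were scaled separately. In each of the 4 TG pairs Eif4ebp1 is above and Eif4ebp2 below the vehicle libraries.

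The eIF4E-binding proteins held the largest rise and the largest fall of the set in control B16F10. Eif4ebp1 (chromosome 8, 27260329-27276674, plus strand), whose protein 4E-BP1 competes with eIF4G for eIF4E, measured 83.7 and 95.9 CPM in control B16F10 with vehicle and 266 and 283 with TG. In Ccdc101 KO cells it measured 74.9 and 75.3 with vehicle and 257 and 251 with TG. Resting T cells held 61.8 and 61.3 CPM with vehicle and 159 and 164 with TG, and activated T cells 78 and 75.1, then 225 and 211. No TG library overlapped the vehicle libraries of its group. The log2 rises were 1.62 ± 0.048 (SE), 1.76 ± 0.05, 1.39 ± 0.049 and 1.51 ± 0.044, with edgeR adjusted p of 2.3e-25, 8.7e-26, 2.4e-32 and 6.4e-36.

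Its paralog Eif4ebp2 (chromosome 10, 61428491-61452661, minus strand) went the other way. Control B16F10 held 164 and 162 CPM with vehicle and 61.5 and 66.9 with TG, a log2 change of -1.35 ± 0.05 (SE, edgeR adjusted p = 5.6e-26). The changes were -1.12 in KO cells, -0.55 in resting and -0.25 in activated T cells, all past the threshold. Per kilobase, Eif4ebp1 made up 59.1% ± 2.5 (SD, n = 2) of the pair in control B16F10 with vehicle and 91.9% ± 0.1 with TG. In resting T cells its share went from 61.5% ± 0.8 to 86% ± 0.22, and in activated T cells from 68.8% ± 0.11 to 88.2% ± 0.78. Eif4enif1, which encodes the eIF4E transporter 4E-T, measured 112 and 114 CPM in resting T cells with vehicle and 245 and 256 with TG, a log2 rise of 1.15 ± 0.043. Its log2 change was 0.12 in activated T cells and 0.02 in control B16F10, the last not called (edgeR adjusted p = 0.75).

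**Figure D3:**
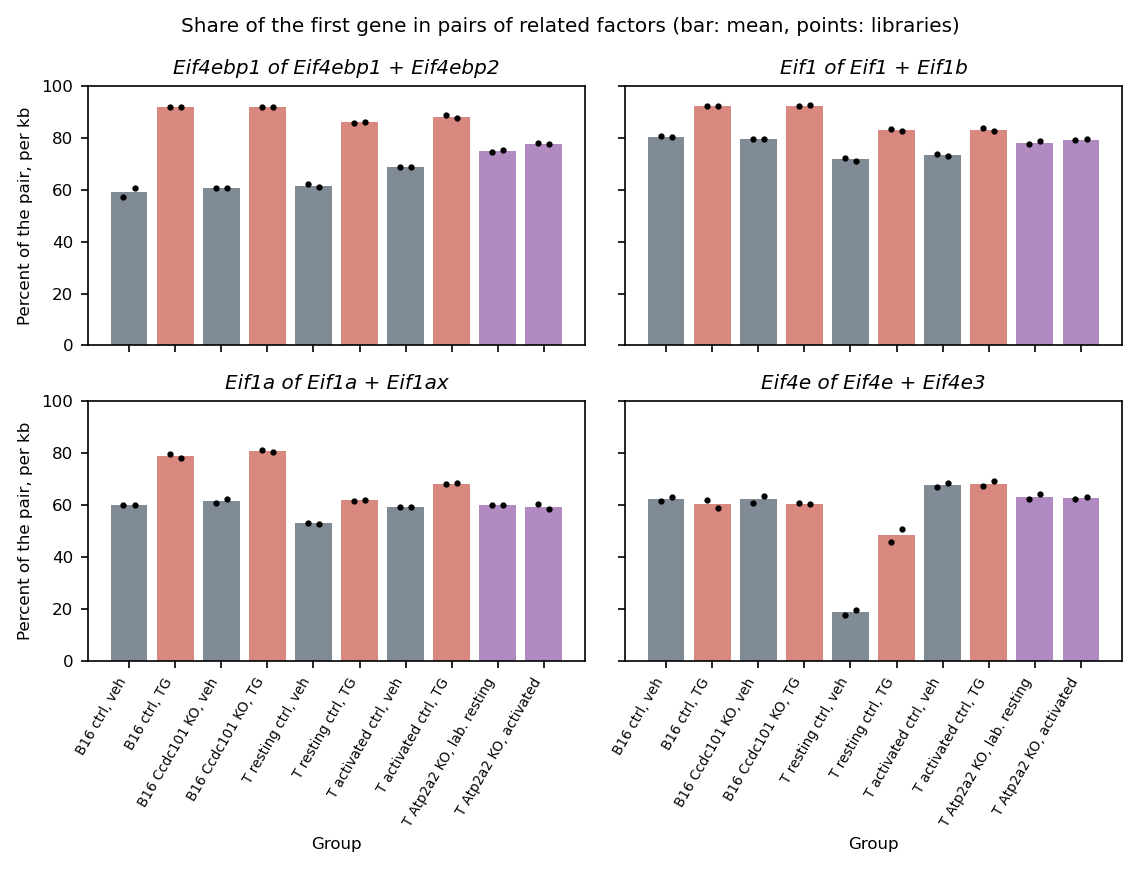
Percent of a pair of related genes contributed by the first gene, per kilobase of exon (y axis, 0 to 100), in the 10 groups (x axis); bars are group means, points the 2 libraries, red marks TG and purple Atp2a2 KO. Eif4ebp1 exceeds 85% of its pair in the TG groups and stays under 78% elsewhere, and Eif4e is at 18.7% of its pair with Eif4e3 in resting T cells with vehicle.

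Of the 8 genes of start codon selection and subunit joining, 6 rose and 1 fell with TG in control B16F10 (all genes 35.7% and 36.1%). In resting T cells 6 rose and 2 fell (34.1% and 35.2%), and in activated T cells 2 rose and 5 fell (32.6% and 32.4%). Eif1 (chromosome 11, 100319885-100322096, plus strand), which guards the accuracy of start codon choice, went from 272 and 274 CPM to 731 and 750, a log2 rise of 1.44 ± 0.033 (SE, edgeR adjusted p = 7.3e-34). It rose by 1.31 in KO cells, 0.71 in resting and 0.56 in activated T cells. Its paralog Eif1b was not called in control B16F10 (-0.11, adjusted p = 0.17) and fell by 0.25 and 0.28 in resting and activated T cells. Eif1 accordingly made up 80.4% ± 0.25 of the pair in control B16F10 with vehicle and 92.4% ± 0.085 with TG, per kilobase. Eif5 (chromosome 12, 111538016-111546752, plus strand), which triggers GTP hydrolysis by eIF2, went from 571 and 569 to 1034 and 1000 CPM in control B16F10, and from 403 and 423 to 485 and 481 in activated T cells. Its log2 rise was 0.84, 0.96, 0.57 and 0.23 across control B16F10, KO B16F10, resting and activated T cells.

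The pair Eif1a and Eif1ax, which encode near-identical forms of the scanning factor eIF1A, separated under TG. Eif1a went from 158 and 158 CPM to 317 and 293 in control B16F10 (log2 0.95 ± 0.04, edgeR adjusted p = 4.4e-24), while Eif1ax went from 133 and 134 to 101 and 104 (-0.38 ± 0.047, adjusted p = 1.7e-09). In resting T cells Eif1a rose by 0.29 and Eif1ax fell by 0.23. In activated T cells Eif1ax fell by 0.67, from 185 and 190 to 119 and 118 CPM. There the fall of Eif1a was 0.10 (adjusted p = 0.023) and was no longer called without any 1 of the 4 libraries (lowest change -0.11, highest -0.07). Eif5b, the subunit joining GTPase, rose by 0.13 in control B16F10 and 0.26 in resting T cells and fell by 0.34 in activated T cells. Eif6, which keeps the large subunit from joining early, followed with 0.22, 0.20 and -0.19.

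The subunits of eIF2 did not move together. Eif2s2 (chromosome 2, 154871410-154892935, minus strand), encoding the beta subunit, measured 172 and 172 CPM in control B16F10 with vehicle and 348 and 321 with TG. In resting T cells it measured 99.4 and 92.3, then 182 and 175, and in activated T cells 165 and 168, then 224 and 227. The log2 rises were 0.96 ± 0.041, 0.89 ± 0.045 and 0.44 ± 0.04 (SE), with edgeR adjusted p of 6.7e-23, 4.1e-25 and 1.9e-14. Eif2s1, the alpha subunit that stress kinases phosphorylate, stood at 231 and 225 CPM without and 221 and 203 with TG in control B16F10, and the log2 change of -0.11 (adjusted p = 0.018) was lost without vehicle replicate 1 (-0.08, adjusted p = 0.17) or TG replicate 2 (-0.05, adjusted p = 0.37). In activated T cells it fell from 273 and 278 to 198 and 192 CPM, a log2 change of -0.50 ± 0.042 (adjusted p = 9.4e-16). Eif2s3x, the gamma subunit, fell there by 0.52. Eif2a, a separate factor linked to alternative initiation, rose by 0.25 in control B16F10 and fell by 0.43 and 0.37 in resting and activated T cells.

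The 5 eIF2B genes encode the exchange factor that stressed eIF2 inhibits. With TG 2 rose and 2 fell in control B16F10, near the shares over all genes (35.7% and 36.1%). In resting T cells 2 rose and 1 fell (34.1% and 35.2%), and in activated T cells 0 rose and 3 fell (32.6% and 32.4%). Eif2b1, the alpha subunit, went from 106 and 110 CPM to 75 and 67.7 (log2 -0.60 ± 0.053, edgeR adjusted p = 3.1e-13). It fell in the other settings too, by 0.46 in KO cells, 0.21 in resting and 0.68 in activated T cells. Eif2b3, the gamma subunit, went from 35.5 and 33.7 to 41 and 40.9 CPM in control B16F10 (0.24), and from 20.5 and 20.9 to 32.9 and 34.4 in resting T cells (0.70 ± 0.082, adjusted p = 6.7e-11). In activated T cells Eif2b3 fell by 0.17, a call lost without vehicle replicate 2 (-0.13) or TG replicate 1 (-0.12). Eif2b5, the catalytic epsilon subunit, was not called in either B16F10 genotype or in resting T cells (-0.02, -0.01 and 0.01). In activated T cells Eif2b5 was called lower, at 162.0 and 177.6 CPM with vehicle and 160.5 and 152.4 with TG. Eif2b2 and Eif2b4 moved by -0.13 and 0.16 in control B16F10, and both calls were lost without vehicle replicate 1 (-0.08 and 0.12) or without 1 TG library, replicate 2 for Eif2b2 (-0.11) and replicate 1 for Eif2b4 (0.1).

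Of the 14 genes of eIF3, the largest initiation factor, 8 rose and 4 fell with TG in control B16F10 (all genes 35.7% and 36.1%). In each T cell state 5 rose and 4 fell, near the shares over all genes (34.1% and 35.2% resting, 32.6% and 32.4% activated). Eif3c (chromosome 7, 126546455-126566411, minus strand), a core subunit, measured 720 and 705 CPM with vehicle and 1397 and 1348 with TG in control B16F10. In resting T cells it measured 460 and 442, then 1137 and 1161, and in activated T cells 809 and 849, then 1480 and 1511. The log2 rises were 0.95 ± 0.029, 1.35 ± 0.035 and 0.85 ± 0.034 (SE; edgeR adjusted p = 3.7e-29, 5.6e-39 and 7e-30), and 1.15 in KO cells. Eif3a, the scaffold subunit, rose from 946 and 950 to 1496 and 1529 CPM in control B16F10 and from 586 and 568 to 792 and 801 in resting T cells, and fell from 908 and 934 to 802 and 792 in activated T cells. Eif3b, the other core scaffold, fell by 0.29 in control B16F10 and 0.49 in activated T cells and was not called in resting T cells (-0.06, adjusted p = 0.16). Eif3l fell by 0.56, 0.42, 0.13 and 0.21 in the 4 settings, and Eif3g, an RNA-binding subunit, rose by 0.18, 0.35, 0.54 and 0.23. The subunit genes Eif3e and Eif3h moved little, with log2 changes from -0.09 to 0.19 and from -0.06 to 0.20 over the 4 settings.

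Most tested genes of the cap-binding and helicase group fell with TG. In control B16F10 7 of 11 fell and 3 rose (all genes 36.1% and 35.7%), in resting T cells 7 fell and 4 rose (35.2% and 34.1%), and in activated T cells 10 fell and 0 rose (32.4% and 32.6%). Eif4g1, the main scaffold of eIF4F, went from 1708 and 1704 to 1237 and 1250 CPM in control B16F10, from 659 and 659 to 539 and 536 in resting, and from 1300 and 1292 to 781 and 767 in activated T cells. Its log2 changes were -0.46 ± 0.026, -0.29 ± 0.033 and -0.74 ± 0.032 (SE; edgeR adjusted p = 2.5e-19, 1.8e-11 and 6.3e-28). Eif4g2, a scaffold that lacks the eIF4E site and serves cap-independent initiation, rose from 2312 and 2152 to 3070 and 3043 CPM in control B16F10 (0.45) and fell in T cells by 0.12 and 0.09. Eif4a1, the helicase, fell from 795 and 811 to 540 and 533 CPM in activated T cells (-0.58), and by 0.15 in control B16F10. Eif4e, the cap-binding protein, fell from 145 and 144 to 110 and 102 CPM in control B16F10 (-0.45) and from 141 and 151 to 116 and 116 in activated T cells (-0.32), but rose from 49.8 and 52.7 to 66.4 and 69.7 in resting T cells (0.41). Its paralog Eif4e3 fell in resting T cells from 97.7 and 89.5 to 32.7 and 28.1 CPM (-1.62 ± 0.068, adjusted p = 7.3e-29), the largest fall of any member with TG. The eIF5A genes fell in every setting: Eif5a by 0.42, 0.20, 0.54 and 0.60, and the low-level paralog Eif5a2 by 1.13, 1.27, 0.39 and 0.49.

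Activation of control T cells raised most initiation factor mRNAs. With vehicle, 39 of 48 rose and 5 fell, against 35.3% and 39.1% of all 13432 genes tested, and the median log2 change was 0.66. 27 rose by at least 1.5-fold and 1 fell by as much, against 21.2% and 24.7% of all genes. With TG, 37 rose and 4 fell (background 32.0% and 31.9%) with a median of 0.37. With vehicle all 5 eIF2B genes rose, as did both eIF5A genes, 9 of 11 cap-binding genes, 10 of 14 eIF3 genes and 7 of 8 genes of start codon selection. With TG the cap-binding count was 8, the start codon count 5, and the others were equal.

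The eIF2B genes differed in size of response. Eif2b3 went from 20.5 and 20.9 CPM in resting to 80.3 and 85.9 in activated cells, a log2 rise of 2.00 ± 0.068 (SE, edgeR adjusted p = 3.3e-33) and the largest of the 48. Eif2b1 rose from 42.6 and 43.2 to 80.2 and 87.5 CPM (0.96), Eif2b4 from 32.5 and 34 to 63.7 and 61.6 (0.92), and Eif2b5 from 99.4 and 99.8 to 162 and 178 (0.77). Eif2b2, the beta subunit, moved least, from 57.7 and 56.3 to 66.3 and 61.5 CPM (0.17, adjusted p = 0.0076), and was not called without resting replicate 2 (0.15, adjusted p = 0.052) or activated replicate 1 (0.12, adjusted p = 0.16). The plot of T cell libraries shows these genes with Eif2s1, Eif2s2 and Eif4e. Eif2s1 rose from 140 and 129 to 273 and 278 CPM, and Eif2s3x from 45.4 and 42.4 to 91.2 and 91.3.

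**Figure D4:**
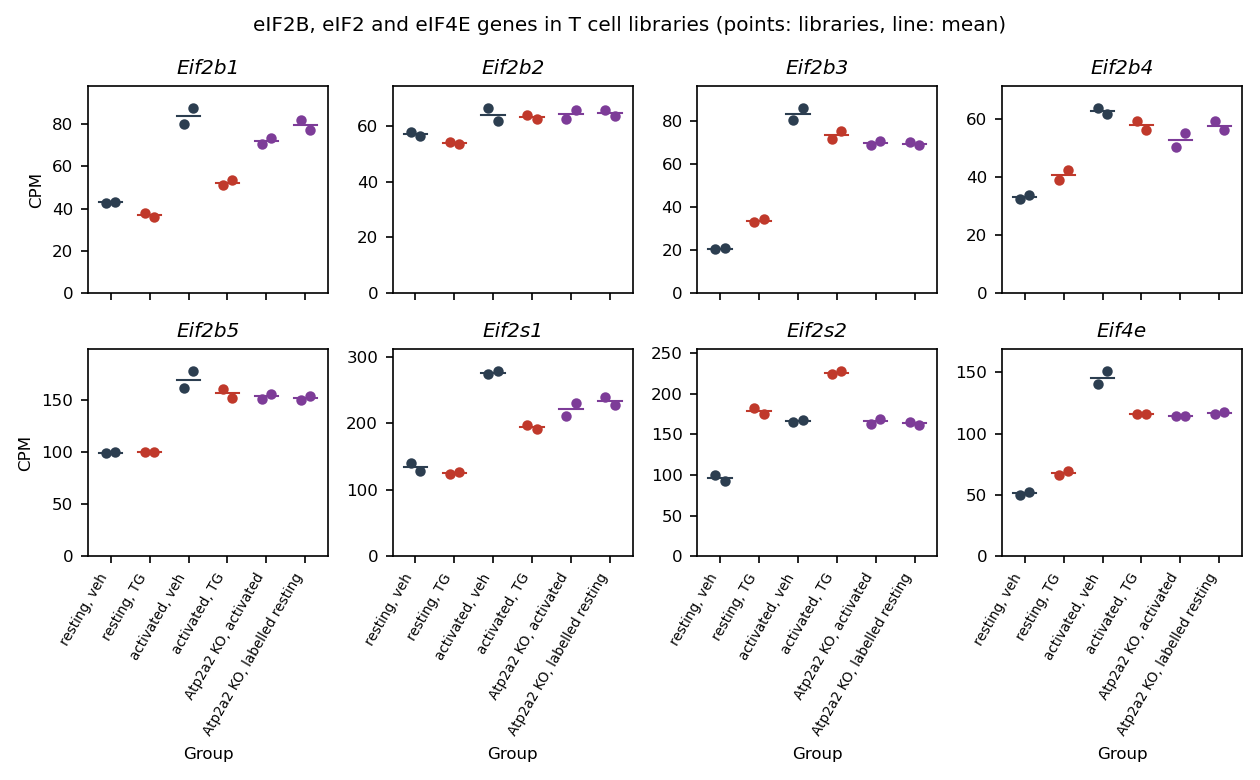
CPM (y axis, from 0, own scale per gene) of the 5 eIF2B genes, Eif2s1, Eif2s2 and Eif4e in the 6 T cell groups (x axis); points are libraries, lines group means, red marks TG and purple Atp2a2 KO. Eif2b3 lies near 20.7 CPM in resting cells with vehicle and near 83.1 in activated cells, while Eif2b2 stays between 53.5 and 66.3 in all 12 libraries.

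Among cap-binding genes Eif4e rose from 49.8 and 52.7 to 141 and 151 CPM with activation (log2 1.51 ± 0.051 SE, edgeR adjusted p = 3.2e-33). Eif4g1 rose from 659 and 659 to 1300 and 1292, and Eif4a1 from 431 and 412 to 795 and 811. Eif4e3 went against them, from 97.7 and 89.5 to 28.9 and 28.9 CPM (-1.70 ± 0.066, adjusted p = 1.6e-30). Eif4e therefore made up 18.7% ± 1.6 (SD, n = 2) of the summed level of Eif4e and Eif4e3 per kilobase in resting cells, 48.5% ± 3.6 in resting cells with TG and 67.8% ± 1 in activated cells. In control B16F10 the share was 62.4% ± 0.98 with vehicle. Exons of Gm20696 overlap 14.8% of the exon bases of Eif4e3 on the same strand. Reads there may not be assigned to Eif4e3, which would raise these shares of Eif4e. Eif5a rose from 829 and 778 to 1453 and 1459 CPM (0.86).

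Other large rises with activation were Eif3j1 (1.39), which helps ribosomes load and recycle, Eif6 (1.26), Eif1a (1.2), Eif3b (1.09), Eif3g (1.01) and Eif5b (1.01). Eif4ebp1 rose by 0.32, from 61.8 and 61.3 to 78 and 75.1 CPM. Besides Eif4e3, 4 genes fell: Eif3f by 0.48, from 451 and 434 to 313 and 322 CPM, Eif3h by 0.22, Eif4ebp2 by 0.15 and Eif3e by 0.12. Eif4ebp2 and Eif3e were not called by DESeq2 (adjusted p = 0.085 and 0.088) or without some single libraries: Eif4ebp2 gave -0.12 without resting replicate 2 or activated replicate 2, and Eif3e gave -0.08 without resting or activated replicate 1.

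The response to TG differed between activated and resting T cells for 34 of 48 genes in edgeR's test of the difference itself, and for 51.9% of all genes: 8 were higher and 26 lower in activated cells, against 26.7% and 25.2% of all genes. The difference for Eif3j1 was -1.10 ± 0.11 (SE, adjusted p = 7.7e-13): it went from 20.3 and 20 to 32.7 and 33 CPM in resting cells and from 55.3 and 50.1 to 39.5 and 40.6 in activated cells. Eif4enif1 (-1.03), Eif2b3 (-0.87), Eif4e (-0.73), Eif4g3 (-0.69), Eif3a (-0.67), Eif4a2 (-0.60) and Eif5b (-0.60) also differed that way. Eif4e3 differed the other way (1.26), and Eif3f by 0.41. For Eif4ebp1 the difference was 0.12 ± 0.067 and was not called (adjusted p = 0.14). Eif1 differed by -0.14 (adjusted p = 0.034), which was lost without resting vehicle replicate 2 (-0.12), activated vehicle replicate 1 (-0.12) or activated TG replicate 2 (-0.11). The comparison of both TG effects is plotted gene by gene.

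**Figure D5:**
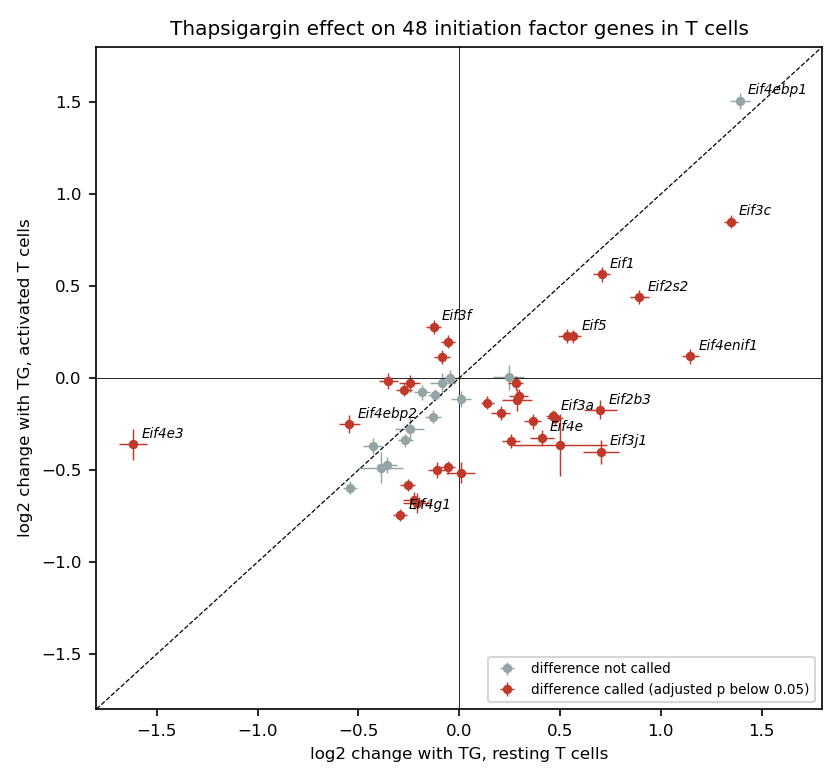
Log2 change with TG in resting (x axis) and activated (y axis) T cells for the 48 tested genes; bars are SE, the dashed line marks equal change, and red marks genes whose 2 changes differ at an adjusted p below 0.05. More red points lie below the line than above it, 26 against 8.

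Control B16F10 cells and T cells were compared in a fit of all 20 libraries. Against resting T cells the TG effect in B16F10 was higher for 14 and lower for 21 of 48 genes (background 23.6% and 23.8%), and against activated T cells higher for 25 and lower for 8 (background 21.6% and 21.8%). Eif1 responded more in B16F10 than in either T cell state, by 0.71 and 0.85 on the log2 scale, and so did Eif1a, by 0.63 and 1.02. Eif2a differed by 0.66 and 0.59, as it rose in control B16F10 and fell in both T cell states. Eif4ebp2 fell further in B16F10, by differences of -0.82 and -1.12, and Eif5a2 likewise (-0.76 and -0.67). The difference for Eif4enif1 was -1.15 and that for Eif4e -0.88 against resting T cells. Adjusted p-values from edgeR for these differences ran from 1.9e-27 (Eif4enif1) to 1.7e-05 (Eif5a2). Cell type and culture medium cannot be told apart in these comparisons.

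Ccdc101 encodes Sgf29, a histone-reading subunit of the SAGA coactivator complex. With vehicle, KO cells had 2 initiation factor genes higher and 14 lower than control B16F10, against 12.4% and 13.3% of all genes, and 0 of the 16 reached 1.5-fold in either direction, against 3.36% and 1.25%. Eif4ebp2 went from 164 and 162 to 129 and 128 CPM (log2 -0.35 ± 0.044 SE, edgeR adjusted p = 4.3e-08), and Eif3b from 758 and 765 to 634 and 635 (-0.26). Eif4g1 fell by 0.22 and Eif6 by 0.22. Eif4a2, the second eIF4A helicase, rose from 130 and 140 to 166 and 155 CPM (0.25, adjusted p = 2.3e-05). None of the 5 eIF2B genes was called, with changes between -0.08 and 0.03.

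With TG in both genotypes, 13 genes were higher and 4 lower in KO than in control B16F10 (background 16.6% and 15%). Eif1a measured 317 and 293 CPM in control and 364 and 359 in KO cells (0.24, edgeR adjusted p = 2.2e-06), and Eif1 731 and 750 against 660 and 668 (-0.16, adjusted p = 0.00012). The test of whether the genotype changed the TG response called 13 genes higher and 1 lower (background 7.16% and 5.95%). Eif4b, the helicase cofactor, fell by 0.35 in control and 0.07 in KO cells with TG (difference 0.28 ± 0.043, adjusted p = 4.5e-06), and Eif3b by 0.29 and 0.07 (difference 0.22). Both totals depended on single libraries. The 17 genes of the first comparison became 10 without control TG replicate 2 and 9 without KO TG replicate 2, and the 14 of the second became 8 without control TG replicate 2, 7 without KO vehicle replicate 1 and 9 without either KO TG library.

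In activated T cells the Atp2a2 KO was accompanied by small decreases of most members. Compared with activated control cells, 5 rose and 30 fell, against 17.5% and 19.6% of all genes, with a median log2 change of -0.17. The 5 that rose were Eif4ebp1 (0.65), Eif1 (0.29), Eif4g3 (0.23), Eif3f (0.18) and Eif3c (0.12). Eif4ebp1 measured 78 and 75.1 CPM in control and 120 and 120 in KO libraries (0.65 ± 0.046 SE, edgeR adjusted p = 2.1e-17), and Eif1 221 and 214 against 258 and 276 (adjusted p = 2.6e-08). Eif3c measured 809 and 849 against 894 and 911 and was not called without control replicate 1 (0.09, adjusted p = 0.14). Eif4e fell from 141 and 151 to 114 and 115 CPM (-0.35) and Eif2s1 from 273 and 278 to 211 and 231 (-0.32). Eif5a2 fell by 0.49, Eif3j1 by 0.39 and Eif2b3 by 0.25.

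The KO and TG comparisons in activated T cells share their control libraries, so their values are only set side by side. Eif4ebp1 changed by 0.65 with the KO and 1.51 with TG, Eif1 by 0.29 and 0.56, and Eif3f by 0.18 and 0.28. Eif4g1 changed by -0.20 and -0.74, Eif5a by -0.21 and -0.60, and Eif4e by -0.35 and -0.32. Eif2s2 and Eif5, raised by TG (0.44 and 0.23), were not called with the KO (-0.00 and -0.02). Eif4g3 rose with the KO (0.23) and fell with TG (-0.22).

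The labelled resting Atp2a2 KO libraries were set against 3 groups. Against resting control cells 38 genes were higher and 4 lower (background 33.7% and 35.9%), with Eif2b3 at 70.3 and 68.6 CPM against 20.5 and 20.9, and Eif4e3 at 29.3 and 27.4 against 97.7 and 89.5. Against activated control cells, a comparison added after these libraries had been examined, 6 were higher and 22 lower (background 15% and 16.6%), led by Eif4ebp1 (0.47) and Eif5a2 (-0.49). Against the activated KO libraries, also added, edgeR called 0 of 48 (background 0.119% and 0.469%). Of the 48, 6 had an unadjusted edgeR p below 0.05, as did 1411 of all 13432 genes tested. Eif4ebp1 was nearest, at 104 and 108 CPM against 120 and 120 (-0.18, adjusted p = 0.0645). The sum of the activation genes given above moved with these results, and its part in them was not tested.

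A list of 38 other translation genes, covering eIF2 alpha kinases, their phosphatase, mTOR pathway genes, poly(A)-binding, elongation and release factors, was described beside the initiation factors. With TG 21 rose and 11 fell in control B16F10 (all genes 35.7% and 36.1%), 14 rose and 8 fell in resting T cells (34.1% and 35.2%), and 15 rose and 17 fell in activated T cells (32.6% and 32.4%). Ppp1r15a, the inducible eIF2 alpha phosphatase subunit, averaged 18.5 CPM without and 598.5 with TG in control B16F10, 32.8 and 152.5 in resting, and 35.9 and 174.1 in activated T cells. Atf4, the stress transcription factor whose targets include Eif4ebp1, averaged 402 and 1442 CPM in control B16F10, 290.3 and 607 in resting and 388 and 758 in activated T cells. Eif2ak3, which encodes the stress kinase PERK, rose in control B16F10 from 57.9 to 166 CPM and fell in resting T cells from 310.0 to 76.6 and in activated T cells from 132 to 83.6. Mknk2, a kinase of eIF4E, fell with TG from 259 to 46.7 CPM in control B16F10, from 423 to 133 in resting and from 400.4 to 169 in activated T cells. Pdcd4, which inhibits eIF4A, rose in control B16F10 from 9.29 to 57.3 CPM and fell in resting T cells from 225 to 127. In activated T cells Pdcd4 stood at 45.8 and 46.7 CPM and was not called (edgeR adjusted p = 0.68).

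With activation and vehicle 22 of the 38 rose and 12 fell (all genes 35.3% and 39.1%). Myc averaged 203 CPM in resting and 563 in activated cells with vehicle, and 235 and 335 with TG. Pabpc4, a poly(A)-binding protein, rose from 58.8 to 164 CPM, and Gspt1, a release factor, from 184 to 459.9. Pdcd4 fell from 225 to 45.8 CPM and Eif2ak3 from 310.0 to 132. The elongation factor genes Eef1a1 and Eef2 fell, from 8094 to 6165 and from 7483 to 6281 CPM, while Eef1d rose from 191 to 293 and Eef1g from 589 to 724. In activated Atp2a2 KO cells 10 of the 38 rose and 14 fell (all genes 17.5% and 19.6%). Among them, Ppp1r15a rose from 35.9 to 57.2 CPM and Atf4 from 388 to 445, while Myc fell from 563 to 453.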

How the data were processed

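Total RNA was extracted with Trizol and sequenced from standard Illumina libraries, per the labels' protocols. The deposited values are raw gene counts. The submitters' processing notes name STAR 2.6.0c, the build GRCm38/mm10 and HTSeq; strand, annotation and filters are not given in the sources used here. The 46603 Ensembl identifiers were named from GENCODE M21; 598 had no name and held 0.0759% of the counts.

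The tests used edgeR 4.0.16, with limma 3.58.1, under R 4.3.3 (TMM scaling, filterByExpr, robust quasi-likelihood F test, Benjamini-Hochberg adjustment over all genes tested, threshold 0.05). Separate fits used the 8 B16F10 libraries (12540 genes, 4 residual degrees of freedom), the 12 T cell libraries (13432 genes, 6) and the full set of 20 (14824 genes, 10). The common variation between libraries of a group beyond counting noise was 2.71%, 2.8% and 2.77%, and it may be technical. CPM carry the TMM scaling of their fit; RPKM use that of all 20 libraries and the merged exon length. SE was obtained from F as the log2 change over its square root. 14 comparisons were planned and 2 were added. Replicates of a group differed beyond sampling noise, so none was merged. Scripts were tested on simulated data.

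The members and lists were chosen with earlier results of these data known. Any member may be named. Library values are given for a fixed panel (Eif4ebp1, the eIF2B genes, Eif2s1, Eif2s2, Eif1, Eif1a, Eif5, Eif4a1, Eif4a2, Eif4e, Eif4g1, Eif4g3, Eif3a, Eif5a and Eif2s3y) and for up to 6 called members with the largest rise and fall per comparison, with at least 10 CPM in the higher group. Some of these are given here by their log2 change alone; library values of Eif1ax and Eif4g2 with TG in control B16F10, and of Eif2s3x with activation, were chosen after they were seen. Comparisons of effects name called panel members and up to 4 others each way. Alternatives were DESeq2 1.42.0, RLE scaling, no filter, 5 CPM in 2 libraries, a replicate block, only the groups compared, and each library left out.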

Additional observations from a re-analysis of the deposited data

Results flagged for a closer look

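Each value here is a difference between 2 TG effects on the log2 scale, called in edgeR's test of the difference itself at an adjusted p below 0.05. Many of the 48 genes passed this test, so the values mark size rather than rarity.

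Between Ccdc101 KO and control B16F10, the TG effect was higher in the KO for Eif2b3 (0.30), Eif4b (0.28), Eif3b (0.22), Eif4ebp2 (0.22), Eif5a (0.22), Eif3c (0.20), Eif1a (0.19), Eif4g1 (0.17) and Eif5 (0.12), and lower for Eif1 (-0.13). Of these, Eif4b, Eif3b, Eif4ebp2, Eif5a and Eif4g1 fell with TG in both genotypes, so their positive difference is a smaller fall in the KO. The calls of Eif1, Eif1a, Eif2b3, Eif4ebp2 and Eif5 were lost with DESeq2. That of Eif1 was also lost with RLE scaling (adjusted p = 0.0825) and without any 1 of the 8 B16F10 libraries, and the other 4 without some single libraries.

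Between activated and resting T cells, the TG effect was lower in activated cells for Eif3j1 (-1.10), Eif4enif1 (-1.03), Eif2b3 (-0.87), Eif3j2 (-0.86), Eif4e (-0.73), Eif4g3 (-0.69), Eif3a (-0.67), Eif5b (-0.60) and Eif4a2 (-0.60), and higher for Eif4e3 (1.26). Eif4e3 fell with TG in both states, and less in activated cells. Eif3j2 averaged at most 10.5 CPM in any group, shares sequence with Eif3j1, and was not called without resting vehicle replicate 2 (-0.64) or activated TG replicate 2 (-0.65).

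Between control B16F10 and resting T cells, the difference was -1.15 for Eif4enif1, -0.88 for Eif4e, -0.82 for Eif4ebp2, -0.76 for Eif5a2, 0.63 for Eif1a, 0.66 for Eif2a, 0.71 for Eif1 and 1.26 for Eif4e3. Between control B16F10 and activated T cells it was -1.12 for Eif4ebp2, -0.67 for Eif5a2, 0.59 for Eif2a, 0.68 for Eif3j2, 0.69 for Eif3j1, 0.85 for Eif1, 0.86 for Eif3a and 1.02 for Eif1a.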

How the results depend on the processing

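No result reversed. Of 184 counts of called genes under alternatives, 172 stayed within 1.5 times the main count. The exceptions were these. Ccdc101 KO with TG (17 genes) gave 9 with DESeq2 and 9 to 19 with 1 library left out. TG by Ccdc101 KO (14) gave 6 with DESeq2, 22 without a filter, 9 with the 5 CPM filter and 7 to 15 with 1 library left out. Labelled resting versus activated Atp2a2 KO (0) gave 1 without a filter and 1 with the 5 CPM filter. Of the values of single genes, 3808 kept their side of the threshold, 189 lost the call and 19 gained it. A change of sign between values that were both not called was not counted.

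Deviations of same-numbered libraries correlated between -0.093 and 0.122. Counting noise weakens such correlations, so they cannot tell whether replicate numbers paired the samples. With the replicate block, TG called 40 genes in control B16F10, 39 in Ccdc101 KO cells, 40 in resting and 38 in activated T cells; activation called 44, the Atp2a2 KO in activated cells 35 and TG by Ccdc101 KO 11, where Eif1 (adjusted p = 0.0645) and Eif5 (adjusted p = 0.0608) were not called. Changes near 0.1 on the log2 scale are at the limit of what 2 libraries a group can hold.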
